A study of Felis catus with 23 samples.

Results

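The liver-enriched microRNAs (miRNAs) described here are 7 names on an array of human miRNA probes: hsa-miR-122-5p, hsa-miR-122-3p, hsa-miR-192-5p, hsa-miR-194-5p, hsa-miR-148a-3p, hsa-miR-885-5p and hsa-miR-193b-3p, written below without the human prefix. They were chosen by name, and every non-control probe carrying one of these names was used. That gave 14 of the 4944 miRNA probes and 7 of the 2026 miRNA names on the array, with 2 probes per name and 15 spots per probe. Serum of 23 cats was hybridised, 1 array per cat: 11 cats had hypertrophic cardiomyopathy (HCM), in which the heart muscle wall thickens, and 12 were healthy. The labels give disease status for each cat, and no breed, age or drug. In both groups blood was left to clot for 20 min and spun at 600 g for 5 min, and serum was kept at -80 °C until Qiazol and miRNeasy Mini columns were used to isolate total RNA, which was labelled with the dye Cy3. Arrays are named by group and replicate number as the labels give them.

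miR-122-5p makes up a large part of the miRNA of hepatocytes, where it takes part in the control of lipid metabolism. It is the guide strand of a hairpin whose other arm is miR-122-3p. Hepatocytes release it when they are injured, and in several mammals its serum level is used as a marker of liver damage. miR-192-5p and miR-194-5p come from shared clusters and are abundant in liver and gut. miR-148a-3p, miR-885-5p and miR-193b-3p are also enriched in, or abundant in, liver and are found in other tissues. The miRNA names are the human names of the probes. No cat sequence and no probe sequence was used, so how well each probe pairs with the cat miRNA is not known here, and no sequences are printed.

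The arrays lay on 3 slides of 7, 8 and 8 arrays. On each slide the HCM arrays stood in the first row and the healthy arrays in the second, so row and group cannot be told apart. Brightness differed between arrays: the 75th percentile intensity over the 508 probes detected on all arrays ran from 90.5 (healthy 20) to 699 (healthy 15). The number of names detected on an array ran from 323 to 615. Negative control spots averaged between -0.418 and 1.75 in intensity, and their 95th percentile was between 1.46 and 4.01. The averages were 1.12 to 1.75 on slide 1, 0.110 to 0.906 on slide 2 and -0.418 to 0.248 on slide 3. No spot of a miRNA probe was saturated on any array. Healthy 20 held the highest value of 98 of the 543 tested names, against a median of 17 names per array. The labels say nothing more on how the cats were sampled, so p-values rest on the variation among these 23 samples alone.

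Detection of a probe required that 50% or more of its spots on that array carried the flag for well above background, and a name counted as detected through any of its probes. Of the 7 liver-enriched names, 3 were detected on at least 1 array: miR-122-5p on 10 arrays, miR-885-5p on 4 and miR-192-5p on 1. The other 4 names, miR-122-3p, miR-194-5p, miR-148a-3p and miR-193b-3p, were detected on none. Over all names on the array, 728 of 2026 (35.9%) were detected on at least 1 array. Of the 23 arrays, 12 carried at least 1 of the 7 names and 11 carried none. HCM 10 carried 3 of them and healthy 17 carried 2, and every other array carried 1 or 0. Over all 2026 names, HCM 10 had 595 detected (rank 3 of 23) and healthy 17 had 568 (rank 4).

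**Figure D1:**
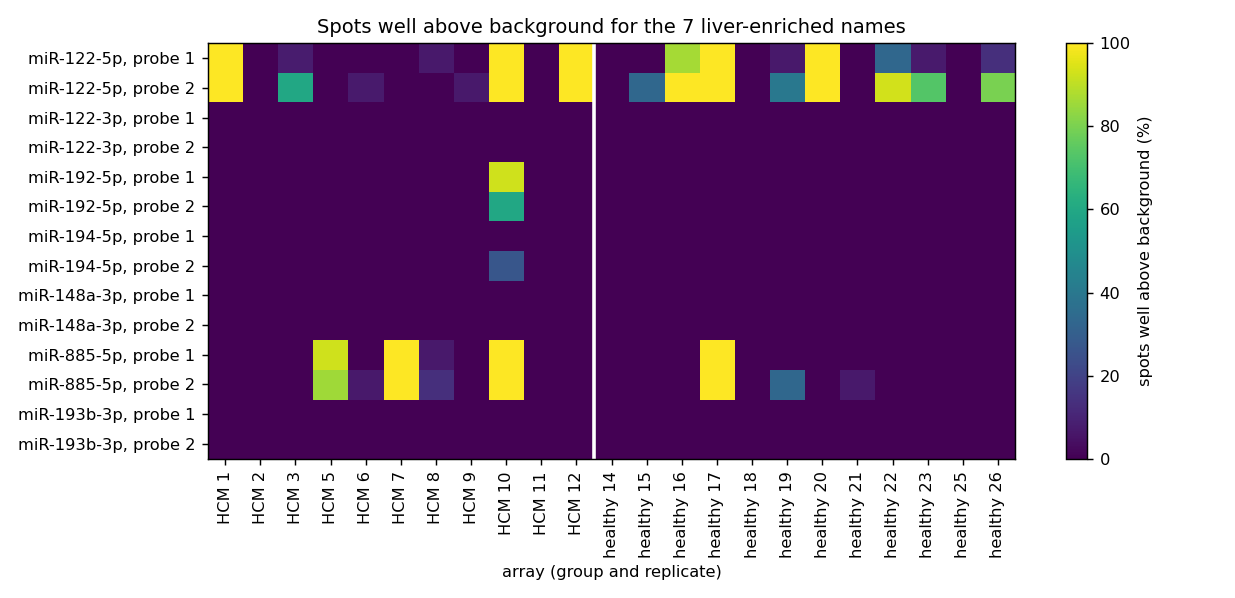
Each row is a probe of the 7 names, each column an array, and the colour is the percent of its spots well above background; a white line parts the HCM arrays (left) from the healthy arrays (right). miR-122-5p reaches the 50% needed for detection on 10 arrays in both groups, miR-885-5p on 4 and miR-192-5p on HCM 10, while the rows of miR-122-3p, miR-148a-3p and miR-193b-3p are at 0 on all 23 arrays.

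miR-122-5p was the liver-enriched name with a signal on the most arrays. Its brighter probe, which stands for the name below, was detected on HCM 1, HCM 3, HCM 10 and HCM 12 and on healthy 16, healthy 17, healthy 20, healthy 22, healthy 23 and healthy 26. The intensity of this probe on the HCM arrays was 23.1 on HCM 1, 0.812 on HCM 2, 6.70 on HCM 3, 1.06 on HCM 5, 4.54 on HCM 6, 1.71 on HCM 7, 3.57 on HCM 8, 3.99 on HCM 9, 407 on HCM 10, 2.10 on HCM 11 and 37.5 on HCM 12. HCM 10 therefore stood far above its group, HCM 12 and HCM 1 came next, HCM 3 was the fourth array detected, and the other HCM arrays were below it at 4.54 or less. On the healthy arrays the intensity was 0.798 on healthy 14, 5.88 on 15, 13.5 on 16, 16.3 on 17, 1.13 on 18, 6.13 on 19, 18.6 on 20, 1.93 on 21, 11.7 on 22, 7.69 on 23, 0.962 on 25 and 9.17 on 26. The healthy arrays spread without one array apart from the rest, and the groups overlapped. No HCM array lay between HCM 3 at 6.70 and HCM 1 at 23.1, where 6 of the 12 healthy arrays fell. The medians were 3.99 in HCM and 6.91 in healthy cats.

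The intensity of 407 on HCM 10 came from 15 spots with an SD of 16.5, all of them well above background. It was 10.8 times that of the next array, HCM 12. The dimmer probe of miR-122-5p was also brightest on HCM 10, at 163 against 23.4 on HCM 12, and was detected on 6 arrays, all among the 10. Over the 23 arrays the intensities of the 2 probes had a Spearman rho of 0.957. Both probes are read from the same labelled RNA on the same array, so this shows that they rank the arrays alike and says nothing about variation between cats.

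Some arrays without a call had a few bright spots. Healthy 19 had 6 of 15 spots of the brighter probe well above background and healthy 15 had 5 of 15, against 9 of 15 on HCM 3, the detected array with the fewest. HCM 3 and healthy 26, with intensities of 6.70 and 9.17, were the detected arrays nearest the floor after scaling.

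Intensities were then scaled to a common 75th percentile, and scaled values below 5.45 were set to that floor, which is 2.45 on the log2 scale. The scaled miR-122-5p intensity was 243 on HCM 10, 52.6 on healthy 20, 28.6 on healthy 22, 22.4 on HCM 1, 20.9 on healthy 16, 19.1 on HCM 12, 12.2 on healthy 17, 11.5 on healthy 23, 6.01 on healthy 26 and 5.57 on HCM 3. HCM 10 stayed highest, 4.62 times the next array. Healthy 20 and healthy 22 moved up in the order because they were among the dimmest arrays, with 75th percentile intensities of 90.5 and 104. On 12 arrays, 7 HCM and 5 healthy, the scaled value was at the floor, and these arrays have no order among them.

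**Figure D2:**
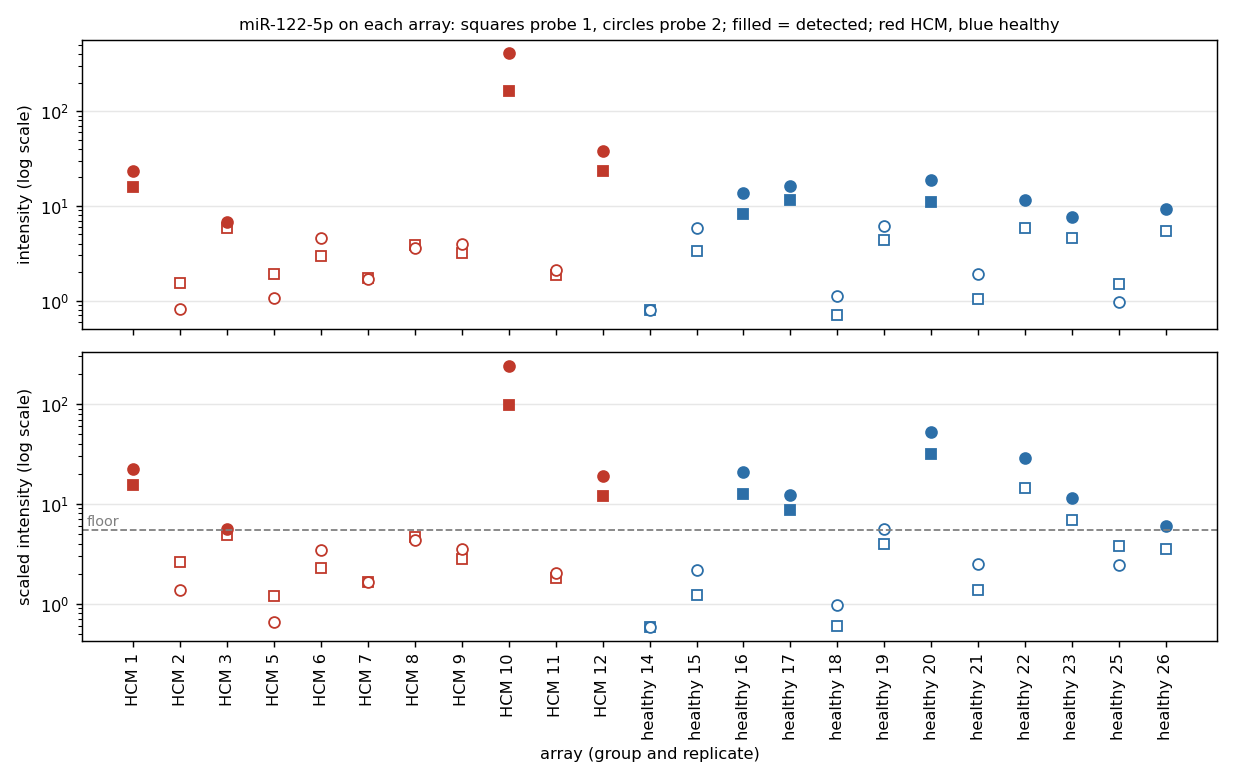
Points give the intensity of both probes of miR-122-5p on each array before scaling (upper panel) and after scaling to a common 75th percentile (lower panel, dashed line at the floor of 5.45), on log axes; filled symbols are detected. HCM 10 is highest in both panels, at 407 and 243 for the brighter probe, and the remaining detected arrays of both groups overlap.

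Whether miR-122-5p was found more often in HCM or in healthy serum was compared first by detection. It was detected on 4 of 11 HCM arrays (36.4%) and 6 of 12 healthy arrays (50%), a difference that Fisher's exact test did not resolve (2-sided p = 0.680, adjusted p = 1 over 728 names). Of those 728 names, 0 (0%) passed an adjusted p of 0.05 by Fisher's exact test, the lowest adjusted p was 0.833, and 20 (2.75%) had an unadjusted p below 0.05. By slide, miR-122-5p was detected on 5 of 7, 1 of 8 and 4 of 8 arrays. The slides differed in negative control intensity, and the part of this in the counts was not tested. Fewer cells releasing the miRNA and less RNA released per cell cannot be told apart in serum. Slide 1 had 2 HCM and 3 healthy arrays with it, slide 2 had 0 and 1, and slide 3 had 2 and 2. Under the stricter rule that every spot be well above background, miR-122-5p was detected on 6 arrays, and the difference in the share of arrays went from 13.6 percentage points lower in HCM to 2.27 points higher.

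The scaled level was compared next, and no difference was resolved. The mean log2 scaled intensity was 3.30 ± 1.72 (SD, n = 11) in HCM and 3.28 ± 1.14 (SD, n = 12) in healthy cats. The difference, HCM minus healthy, was 0.02 with a standard error of 0.56 and a 95% interval from -1.13 to 1.17 (limma, p = 0.975, adjusted p = 0.994). This interval is wide, and values at the floor on 12 arrays enter it as equal. In the same fit over 543 tested names, 0 (0%) passed an adjusted p of 0.05, the lowest adjusted p was 0.238, and 37 (6.81%) had an unadjusted p below 0.05. Among the 11 HCM arrays, 3 had a scaled value over the healthy median.

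The direction of the miR-122-5p difference was not stable. It was negative when any of 10 single arrays was left out, and HCM 10 moved it furthest. Without HCM 10 it was -0.45, with a 95% interval from -1.27 to 0.38 and an adjusted p of 0.853 (limma). Slides 1 and 2 gave -0.21 and -0.82, and slide 3, which holds HCM 10, gave 1.05. On slide 2, healthy 20 was the one array with miR-122-5p detected. With slide as a block the difference was 0.01.

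miR-122-3p, the other arm of the miR-122 hairpin, gave no signal on any array. Its brighter probe was below 0 on 20 of the 23 arrays and reached its highest intensity, 0.527, on HCM 1. On HCM 10, where miR-122-5p was brightest, it was -0.0538. No spot of either probe was well above background.

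miR-192-5p was detected on HCM 10 and on no other array. There its probes had intensities of 7.96, with 13 of 14 spots well above background, and 6.10, with 9 of 15. The next array for both probes was healthy 16, at 1.93 and 1.83, where no spot was well above background. After scaling, the HCM 10 values of 4.76 and 3.65 lay below the floor, so the name entered no fit. Detection on 1 of 11 HCM arrays and 0 of 12 healthy arrays gave a 2-sided Fisher's exact p of 0.478 (adjusted p = 1).

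miR-194-5p, the cluster partner of miR-192-5p, fell short of detection. On HCM 10 its brighter probe had an intensity of 4.99 with 4 of 15 spots well above background, and its other probe 2.14. The next array was healthy 20, at 0.905, and over the other 22 arrays the median was -0.146. HCM 10 was thus the array on which both cluster partners were brightest before scaling. After scaling, the brighter miR-194-5p probe was at 2.99 on HCM 10 and 2.56 on healthy 20, the dimmest array. Its other probe was at 1.28 on HCM 10 and higher, 1.63, on healthy 20. All of these values lay below the floor.

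miR-148a-3p was not detected, and no spot of its probes was well above background. Its highest intensities were 2.11 on healthy 16 and 1.96 on HCM 10. miR-193b-3p was not detected either. Its highest intensity was 3.18 on HCM 10, followed by 0.978 on HCM 6, and no spot was well above background. With miR-122-3p, miR-192-5p and miR-194-5p, these names made 5 that were at the floor on all 23 arrays after scaling.

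miR-885-5p was detected on 4 arrays, and on 2 of them miR-122-5p was detected as well. The probe with the higher mean was detected on HCM 5 at 9.22, HCM 7 at 10.1, HCM 10 at 17.3 and healthy 17 at 15.8, and its other probe on the same 4 arrays. Below these came healthy 19 at 5.02, HCM 8 at 4.95 and HCM 6 at 4.41, which were not detected, and the lowest value was -0.285 on healthy 22. The medians were 3.26 in HCM and 1.37 in healthy cats, and the groups overlapped. After scaling healthy 17 was highest, at 11.9, and HCM 10 followed at 10.4. None of the 7 arrays of slide 1 carried miR-885-5p, and slides 2 and 3 had 2 each.

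Detection of miR-885-5p on 3 of 11 HCM arrays (27.3%) and 1 of 12 healthy arrays (8.33%) was not resolved (Fisher's exact test, 2-sided p = 0.317, adjusted p = 1). Detected on fewer than 6 arrays, the name was outside the main test. In a limma fit of all 717 names above the floor on any array, in which 0 (0%) passed an adjusted p of 0.05 and 43 (6%) had an unadjusted p below 0.05, its difference was 0.08 with a 95% interval from -0.20 to 0.37 (adjusted p = 0.862). It was 0.07 with slide as a block and 0.47 with the deposited values (limma, adjusted p = 0.794). On 7 of 11 HCM and 11 of 12 healthy arrays the scaled value was at the floor. These arrays enter the fit as equal, so the narrow interval does not describe levels below the floor.

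miR-122-5p and miR-885-5p were detected together on 2 arrays, HCM 10 and healthy 17. miR-122-5p alone was detected on 8 arrays, miR-885-5p alone on 2, and neither on 11. The Spearman rho between their intensities was 0.125 over the 23 arrays, which share array brightness between both names and is given as a description. HCM 1 and HCM 12, next after HCM 10 for miR-122-5p intensity, had miR-885-5p intensities of 1.31 and 3.26. HCM 5 and HCM 7, with miR-885-5p, had miR-122-5p intensities of 1.06 and 1.71.

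**Figure D3:**
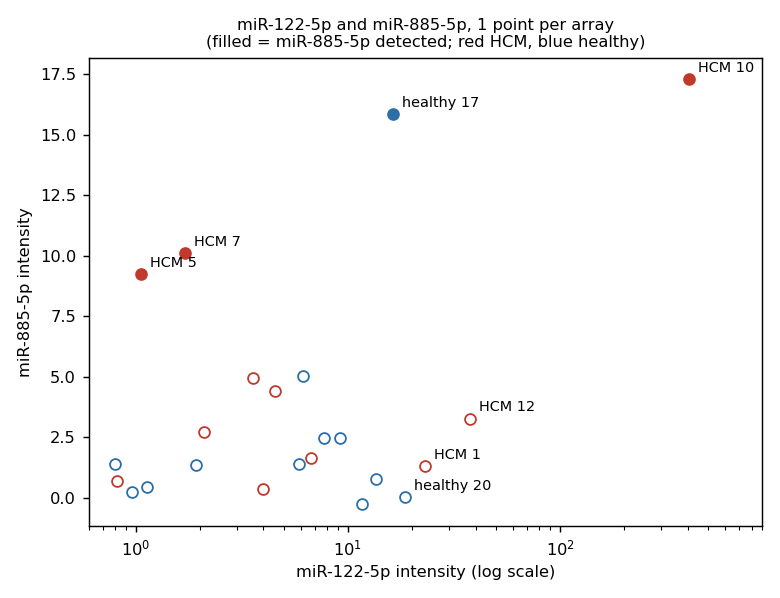
Each point is an array, with the miR-122-5p intensity on a log axis and the miR-885-5p intensity on a linear axis; filled points have miR-885-5p detected, red is HCM and blue is healthy. Before scaling, HCM 10 is highest on both axes and healthy 17 is high in miR-885-5p with a miR-122-5p intensity of 16.3, while HCM 5 and HCM 7 have miR-885-5p and little miR-122-5p.

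HCM 10 carried the fullest set of liver-enriched names, and muscle miRNAs were bright on the same array. Ranked by how far the log2 scaled value on HCM 10 lay above the next array, over 717 names, miR-133b was at rank 1, miR-206 at 2, miR-133a at 3, miR-122-5p at 4 and miR-499a-5p at 5. The 4 named beside miR-122-5p are miRNAs of heart or skeletal muscle. On HCM 10 the intensity of miR-133b was 1313, against 55.8 on the next array, healthy 26. For miR-206 it was 161 against 7.36 on HCM 12. For miR-133a it was 110 against 6.57 on healthy 26, and for miR-499a-5p 40.6 against 3.74 on healthy 16. HCM 10 was far above the other 22 arrays for each of these names. The next 6 ranks were held by miR-378 names, which differ in few bases and may share signal.

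Of the 7 muscle names, 5 were detected on HCM 10, where 595 of all 2026 names were detected (rank 3 of 23). The other arrays carried a median of 0 and at most 2 of the muscle names. miR-133a and miR-499a-5p were detected on HCM 10 alone. miR-208b, encoded within a heart muscle myosin gene, had an intensity of 28.5 on HCM 10 and 12.1 on HCM 8. miR-1, the most abundant miRNA of striated muscle in mammals, and miR-208a were detected on no array, with intensities of 0.308 and -0.185 on HCM 10. The part of muscle RNA in the signals of HCM 10 was not tested.

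Some blood cell miRNAs were also highest on HCM 10, and others were higher elsewhere. Of 5 red cell names 4 were detected there, and the other arrays carried 3 or 4. miR-144-3p, a red cell miRNA, had an intensity of 894 on HCM 10 and 341 on healthy 19, the next array. miR-142-5p, of leukocytes, had 147 there and 62.4 on HCM 12. miR-451a, processed from the same transcript as miR-144-3p, had an intensity of 867 on HCM 10 and 3369.7 on healthy 16. The log2 difference of miR-451a minus miR-23a-3p, a usual index of red cell signal in serum, was 0.19 on HCM 10, rank 4 of 23. Of 5 platelet and leukocyte names 4 were detected on HCM 10, where the other arrays carried between 1 and 4. HCM 10 was also bright, with a 75th percentile intensity of 427 (rank 3) and 595 names detected (rank 3). It held the highest value of 28 of the 543 tested names (5.16%). The part of these measures in the miR-122-5p signal of HCM 10 was not tested.

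**Figure D4:**
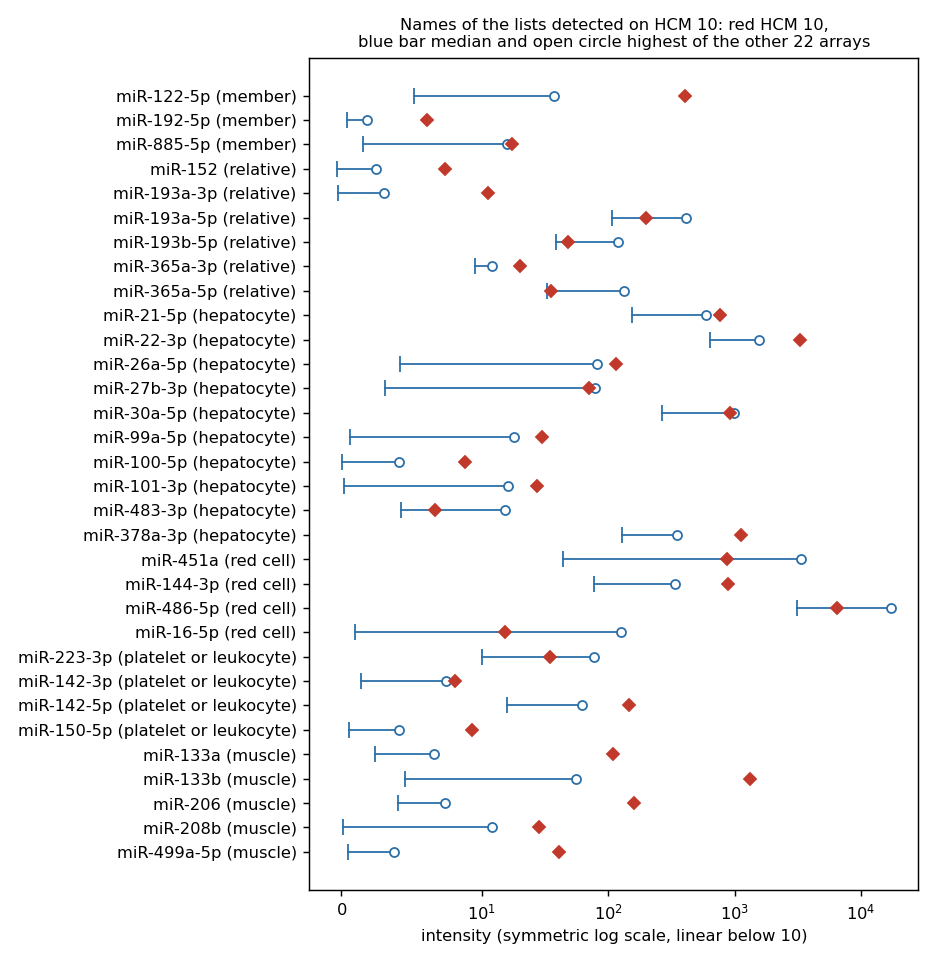
For each listed name detected on HCM 10, the red diamond is its intensity there, the blue bar the median of the other 22 arrays and the open circle the highest of them, on a symmetric log axis that is linear below 10. On the log scale, the widest gaps between HCM 10 and every other array are those of miR-133b, miR-206, miR-133a, miR-499a-5p and miR-122-5p, while miR-451a and miR-486-5p reach higher values on other arrays.

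The relatives of the 7 names, their other arms, cluster partners and family members, were 14 names. Of these, 7 were detected on no array, 4 on all 23 and tested, and the remaining 3 on 1 array each. On HCM 10 the relatives detected were those 4 together with miR-152, of the miR-148 family, and miR-193a-3p, of the miR-193 family. miR-152 had an intensity of 7.41 on HCM 10 and 2.51 on healthy 16, the next array. miR-193a-3p had 11.2 on HCM 10 and 3.01 on healthy 16. Both were detected on HCM 10 alone. miR-215, which shares the miR-192 seed, was not detected and had its highest intensity, 3.58, on HCM 10. miR-194-3p was detected on healthy 15, at 8.85, and on no other array.

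The 4 relatives on all arrays were arms of the miR-193 and miR-365 hairpins, which lie together in the genome. miR-193a-5p, for example, had an intensity between 88.2 and 249 in HCM and between 39.1 and 415 in healthy cats, while miR-193b-3p, the liver-enriched arm of the related hairpin, was not detected. None of the 4 passed the limma test. Of them 1 was higher and 3 were lower in HCM, with a median difference of -0.10, which equals the median over all 543 tested names to 2 decimals. The differences were 0.07 for miR-193a-5p, -0.10 for miR-193b-5p, -0.25 for miR-365a-3p and -0.11 for miR-365a-5p (lowest adjusted p 0.805). All 4 were higher in HCM when arrays were left unscaled, a setting that moved the median of all tested names to 0.21.

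Another 12 names were miRNAs that hepatocytes share with many other cells. Of these, 10 were detected on HCM 10, and between 4 and 8 on each of the other arrays. Over all 2026 names, 595 were detected on HCM 10 (rank 3 of 23), in a range from 323 to 615 per array. miR-100-5p was detected on HCM 10 alone, at 8.77, with 4.10 on healthy 16. miR-99a-5p had 29.7 on HCM 10 and 17.97 on healthy 16, and miR-101-3p 27.3 and 16.1. After scaling this order turned, since healthy 16 was a dimmer array: miR-99a-5p was at 17.8 on HCM 10 and 27.7 on healthy 16, miR-101-3p at 16.3 and 24.8, miR-100-5p at 5.25 (below the floor) and 6.32, and miR-26a-5p at 68.7 and 125. miR-125b-5p and miR-455-3p were detected on no array. Healthy 16 was also the array with the highest red cell index, 3.22, and the part of red cell RNA in these signals was not tested.

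Of the 12 names 7 were tested, and none passed the limma test. In HCM 3 were higher and 4 lower, with a median difference of -0.14, against 183 higher and 360 lower and a median of -0.10 over all tested names. Over all tested names the split was 451 higher and 92 lower with arrays unscaled, 239 and 304 after quantile normalization, 73 and 470 after another background correction (normexp) and 291 and 252 in the deposited values. miR-26a-5p had the lowest difference, -0.56 with a 95% interval from -1.54 to 0.43, and miR-30a-5p the highest, 0.39 with an interval from -0.19 to 0.96 (adjusted p = 0.805 for both). The differences of the others were -0.52 for miR-21-5p, -0.29 for miR-22-3p, -0.14 for miR-27b-3p, 0.12 for miR-378a-3p and 0.21 for miR-483-3p. miR-378a-3p had an intensity of 1130.5 on HCM 10 and 353 on healthy 26, the next array. Its difference was -0.10 without HCM 10. On slide 3, 5 of the 7 were higher in HCM and the median difference was 0.47. On slide 1, 1 was higher and the median was -0.51.

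**Figure D5:**
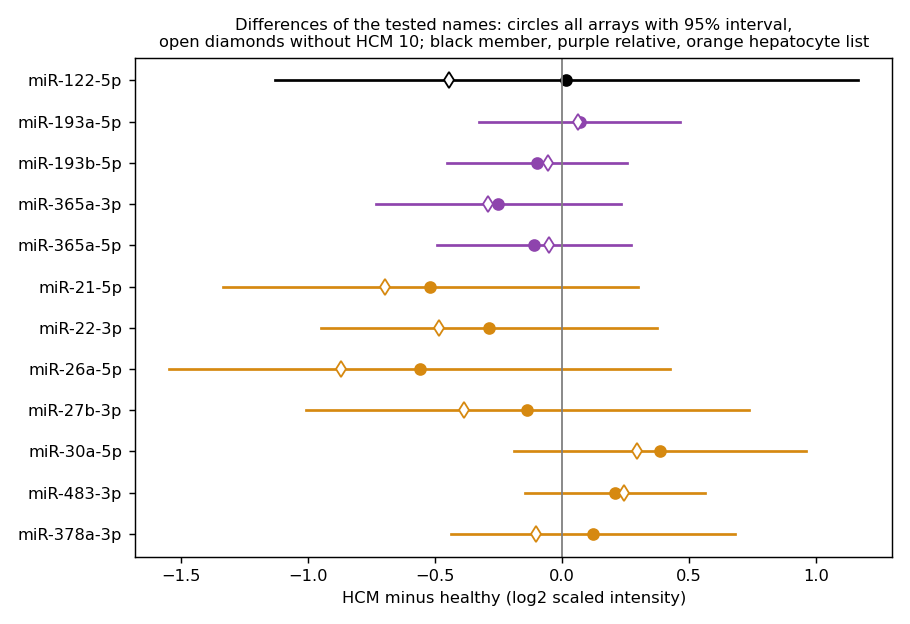
Circles give the HCM minus healthy difference in log2 scaled intensity for the 12 tested names of the liver-enriched set and its lists, lines the 95% interval, and open diamonds the value without HCM 10. All intervals include 0, and miR-122-5p and miR-378a-3p move from above to below 0 when HCM 10 is left out.

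The tested names whose pattern over the 23 arrays was most like that of miR-122-5p were miR-342-3p (Spearman rho 0.841), miR-505-3p (0.795), miR-222-3p (0.787), miR-26a-5p (0.786) and miR-19b-3p (0.757). Without HCM 10 these values were 0.817, 0.761, 0.754, 0.755 and 0.721. The median rho of miR-122-5p with all other tested names was 0.0456. All points share the array scaling, and miR-122-5p is at the floor on 12 of the 23 arrays, so these values are a description. miR-26a-5p is one of the names shared by hepatocytes and other cells, and none of the 5 is a relative of the 7. Some tested blood cell markers also had high rho with miR-122-5p. In the platelet and leukocyte list it was 0.710 for miR-142-5p and 0.629 for miR-223-3p. In the red cell list it was 0.6004 for miR-451a, 0.293 for miR-144-3p and -0.105 for miR-486-5p. The part of blood cell RNA in these values was not tested.

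The miR-122-5p level was set against 3 measures of the array over the 23 arrays. With the log2 75th percentile intensity Pearson's r was -0.14 (permutation p = 0.518, adjusted p = 0.777) and Spearman's rho -0.09 (permutation p = 0.668, adjusted p = 0.985). With the number of names detected r was 0.0499 (permutation p = 0.822, adjusted p = 0.822) and rho -0.00427 (permutation p = 0.985, adjusted p = 0.985). With the red cell index r was 0.349 (permutation p = 0.104, adjusted p = 0.312) and rho 0.371 (permutation p = 0.0816, adjusted p = 0.245). None of the 3 relations passed an adjusted p of 0.05. Without HCM 10, r was -0.43 with brightness (permutation p = 0.0428, adjusted p = 0.128), -0.27 with the number of names (permutation p = 0.229, adjusted p = 0.229) and 0.337 with the red cell index (permutation p = 0.123, adjusted p = 0.184). Without the 2 arrays farthest from the median of the measure, r was -0.03, 0.110 and 0.210. Within slides 1, 2 and 3, r with brightness was -0.22, -0.85 and 0.0420. With the number of names it was -0.07, -0.84 and 0.302, and with the red cell index 0.134, 0.204 and 0.470. Slide 2 had a single array well above the floor, the dim healthy 20, so its values rest on that array.

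The authors' deposited table held both probes of miR-122-5p, miR-192-5p and miR-885-5p. It held no probe of the other 4 names. Over probes above an intensity of 8, its values followed the log2 intensity of each array with r between 0.987 and 0.9998 and a slope between 0.950 and 0.980. The direction is thus the same and the scale log2. Array medians were between 2.98 and 3.31, and the method that brought the arrays to a like centre is not known here. In the authors' deposited table, miR-122-5p was also highest on HCM 10, at 8.24 for the brighter probe, followed by 5.35 on healthy 20. miR-885-5p was highest there on HCM 10, at 3.80 and 3.83 for its probes.

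Where the scanner data held an outlier spot, some dim names had high values in the authors' deposited table. miR-192-5p was highest there on HCM 1, at 5.89 for one probe, and on HCM 11, at 4.74 for the other, and HCM 10 had 2.90 and 2.91. In the scanner data the HCM 1 probe had an outlier spot of 56.8, while its 14 other spots averaged 0.914. The HCM 11 probe had an outlier spot of 23.8 and an average of 0.115 over the rest. For miR-122-5p on HCM 6 the authors' deposited table gave 4.11, where an outlier spot read 221 and the other 14 spots averaged 4.54. Outlier spots were left out of the intensities given here, and these arrays were then not detected for those names.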

How the data were processed

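The scanner files of 23 arrays (11 HCM, 12 healthy) were used. Per the file headers, a spot's value is a linear intensity with its background subtracted, not normalized between arrays. Per the submitters' processing notes, Agilent Feature Extraction 10.7.3.1 was used. The deposited flags of 0 or 1 per spot carry other information (well above background, positive and significant, outlier). The authors' deposited table holds log2 values in 1758 rows, 1750 of them miRNA probes, whose normalization is not given in the sources used here.

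From these, outlier spots (1.81% to 3.95% of spots per array) were left out, and the remaining processed signals of a probe were averaged. For scaling, the 75th percentile of the 508 probes detected on every array was taken, and each array was brought to the geometric mean of these, 255.5. Values under the 5th percentile of detected scaled values were set to it (5.45), and log2 was taken. The probe with the highest mean stood for a name. Names detected on at least 6 arrays (543) were tested with limma 3.58.1 (lmFit and eBayes, R 4.3.3), 2-sided, with Benjamini-Hochberg adjustment. Detection was compared with Fisher's exact test over the 728 names detected on any array, and array measures with 100000 permutations (SciPy 1.17.1). The limma fit was tested on simulated normal values with known changes. These had no floor, so that test does not cover names with many values at the floor.

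The names given are the 7 liver-enriched names, a list of 14 relatives, a list of 12 names abundant in hepatocytes and other cells, marker lists for red cells, platelets and leukocytes, and muscle, and the 5 tested names with the highest Spearman rho to miR-122-5p. The names that rank highest on HCM 10 were chosen after their values were seen. The 7 names and the lists were chosen with earlier results of these data known. Alternatives were other scalings, floors, filters, background corrections and detection rules, the deposited values, slide as a block, each slide alone and leaving out each array. Precision is limited by the number of arrays.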

Additional observations from a re-analysis of the deposited data

How the results depend on the processing

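With every array, 0 names passed in the limma fit. The count was 1 with a lower floor (miR-381-3p), 1 with the scanner software's total gene signal (miR-5700), 2 on slide 2 alone (miR-513a-3p and miR-5700) and 4 with the deposited log2 values (miR-381-3p, miR-4751, miR-513a-3p and miR-5700). None of these is among the 7 liver-enriched names or their lists. The miR-122-5p difference of 0.02 became -0.046 with normexp on the median signals, -0.094 with a lower floor, -0.069 with total gene signal, -0.21 on slide 1 and -0.82 on slide 2. It was 0.53 with arrays unscaled, 0.23 with the deposited values, 0.18 with a higher floor and 1.05 on slide 3, and adjusted p was 0.753 or more under every alternative. Leaving out each array in turn gave -0.45 to 0.24, negative in 10 of 23 cases, with a lowest adjusted p of 0.853. The normexp and HCM 10 alternatives were chosen after seeing the data. The planned normexp on mean signals was not run, because the files used hold median signals.

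Among the lists, leaving arrays unscaled turned miR-193b-5p to 0.32, miR-365a-3p to 0.19, miR-365a-5p to 0.31, miR-22-3p to 0.13 and miR-27b-3p to 0.014. The share of tested names higher in HCM was 33.7% as reported, 83.1% unscaled, 13.4% with normexp and 53.6% with the deposited values. Quantile normalization gave 0.015 for miR-193b-5p and 0.061 for miR-365a-5p, and the deposited values 0.046 and 0.052. Array brightness as a covariate gave 0.00028 for miR-193b-5p and 0.048 for miR-365a-3p. Normexp gave -0.019 for miR-193a-5p and -0.23 for miR-483-3p. On slide 1, miR-193a-5p was -0.10, miR-365a-5p 0.16, miR-483-3p -0.045 and miR-378a-3p -0.51. On slide 2, miR-365a-5p was 0.0031 and miR-378a-3p -0.31. On slide 3, miR-193b-5p was 0.19, miR-21-5p 0.47, miR-22-3p 0.60, miR-27b-3p 0.28 and miR-483-3p -0.10. The cause of these changes was not tested.

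The difference in the share of arrays with miR-122-5p detected, -13.6 percentage points, was -3.03 when any spot sufficed, 2.27 when every spot was required, 16.7 with the positive and significant flag, and -20.0 without HCM 10. By these 3 rules miR-122-5p was detected on 15, 6 and 21 arrays, and miR-885-5p on 8, 3 and 15. In the same order miR-192-5p had 1, 0 and 2 arrays, and miR-194-5p had 1, 0 and 1. For miR-148a-3p the counts were 0, 0 and 2, for miR-193b-3p 0, 0 and 1, and for miR-122-3p 0 throughout. Spearman's rho of unscaled miR-122-5p was 0.0219 with array brightness and 0.107 with the number of names, and 0.00297 with the latter for the deposited values. No paired analysis was possible because the groups share no replicate numbers. Intensities near the negative controls limit statements on the 4 names not detected when 50% of spots had to be well above background. For them a low level in serum and poor pairing of a human probe with the cat miRNA cannot be told apart.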
